A study of Homo sapiens with 11 samples.

Results

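The 10 genes described here form the cytosolic HSP90 system of human cells, with the heat shock factors and the small heat shock protein that act beside it. They were taken by name from the deposited count table: HSP90AA1, HSP90AB1, STIP1, AHSA1, CHORDC1, HSPH1, HSPB1, BAG3, HSF1 and HSF2. All 10 were found among the 58735 genes listed, and all 10 passed the filter on low counts that left 18368 genes for testing. Messenger RNA was sequenced from HEK293T, a line of transformed human embryonic kidney cells, in 11 libraries. Of these, 3 came from cells that had received 50 nM of an siRNA against NAE1 48 h earlier (siNAE1), 3 from cells given 70 nM against UBE2M for the same time (siUBE2M), and 2 from cells given 60 nM against URM1 (siURM1). The other 3 libraries are the control, labelled control siRNA with no dose stated. The study's methods likewise describe a negative control siRNA without a target, while its supplement lists the control libraries under the name HKWT, which it does not explain. Each knockdown used 1 siRNA product at a dose of its own, so target, product and dose cannot be told apart.

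URM1 is a small ubiquitin-like protein that also carries sulfur for the thiolation of transfer RNA, NAE1 is a subunit of the NEDD8-activating enzyme, and UBE2M is a conjugating enzyme of the NEDD8 pathway. The series was designed to profile expression that depends on URM1 and on the enzymes studied as its regulators. HSP90 is an abundant ATP-driven chaperone dimer that completes the folding of kinases, steroid receptors and other clients, which reach it from HSP70 through adaptor proteins. Co-chaperones then set the pace of its ATPase cycle. HSF1 is the main transcription factor of the heat shock response. It is held inactive by chaperones in unstressed cells and, once released, trimerizes and binds heat shock elements, alternating repeats of GAA and TTC, in the promoters of chaperone genes.

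Heat shock elements were searched in the RefSeq promoter windows (GRCh38.p14; 250 bases before to 50 bases after each listed start) because these genes are the classical readout of such elements. Of the 10 members, 9 have a window in the table, all but HSF1, with 15 windows in total. The search was for 2 alternating units, GAANNTTC or TTCNNGAA, and for 3 alternating units, TTCNNGAANNTTC or GAANNTTCNNGAA, where every 3-unit match also holds 2-unit matches. Each of the 2-unit motifs is its own reverse complement, and the 3-unit motifs are reverse complements of each other, so both strands were covered. Of 35116 windows, 13.5% held a 2-unit match and 0.49% a 3-unit match. Of the 15 member windows, 5 held a 2-unit match, in HSP90AA1, HSP90AB1, CHORDC1, HSPB1 and STIP1. A 3-unit match was held by 3 of these windows, in HSP90AA1, HSP90AB1 and CHORDC1. The STIP1 match lay after the listed start, and no match was found in the windows of AHSA1, HSPH1, BAG3 and HSF2. Before the start, 2-unit matches outside the longer runs were also found in CHORDC1, at 205 and 23 bases, and in HSP90AA1, at 68 bases, and these are not printed. Stretches of 30 bases are shown around each match of 3 or more units and around the match of HSPB1, 5′ to 3′ on the strand of the gene, with the matched letters in capitals.

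HSP90AB1 165 bases before the start, chr6:44247770-44247799 +: ggagcaggTTCTGGAAGATTCatgggctcc
HSP90AB1 112 bases before the start, chr6:44247823-44247852 +: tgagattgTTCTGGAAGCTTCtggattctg
HSP90AA1 88 bases before the start, chr14:102087111-102087140 -: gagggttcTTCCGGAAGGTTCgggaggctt
CHORDC1 60 bases before the start, chr11:90223083-90223112 -: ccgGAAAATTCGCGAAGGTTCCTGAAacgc
HSPB1 182 bases before the start, chr7:76302480-76302509 +: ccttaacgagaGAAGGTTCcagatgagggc

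The capitals mark 3 units in each HSP90AB1 stretch and in HSP90AA1, a run of 5 units in CHORDC1, and 2 units in HSPB1. A match is a description of letters and not a bound site. Only exact letters in these windows were searched, so a missing match does not show that an element is absent.

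The targeted genes followed the labels in every library. NAE1 was at 98.9, 109 and 99 CPM in control (the count relative to a library size scaled by TMM factors) and at 41.6, 42.6 and 35.2 in siNAE1. UBE2M was at 263, 268 and 264 CPM in control and at 15.6, 15.6 and 19.1 in siUBE2M. URM1 was at 54.4, 51 and 55.4 CPM in control and at 15.2 and 15.5 in siURM1. Total counts per library ran from 11733163 to 16321391, and the members held from 464 counts (BAG3) to 31674 counts (HSP90AB1) in a library. Depth was lowest in a siNAE1 library, TMM factors ran from 0.949 to 1.06, and mitochondrially encoded mRNA took 3.60% to 4.87% of counts, most in siURM1. Of 7 marker genes of HEK293 cells all 7 were expressed, with a summed level of 419 to 445 CPM in control, 589 to 633 in siNAE1, 535 to 633 in siUBE2M and 657 to 731 in siURM1. These markers did not move alike, with 4 called higher and 1 lower in siNAE1, 2 and 2 in siUBE2M, and 6 and 0 in siURM1, where VIM rose in all 3 knockdowns and INA fell in siNAE1 and siUBE2M. Markers of liver summed to under 1 CPM in every library, with APOB at 0 throughout. The 4 leukocyte markers summed to 0.242 to 0.799 CPM in control, 2.24 to 2.92 in siNAE1, 2.1 to 3.16 in siUBE2M and 0.749 to 0.831 in siURM1. Of these, CD3E was at 0 throughout and CD14 was called higher in siNAE1 (log2 fold change 2.35) and siUBE2M (2.37), the knockdowns in which the cytosolic HSP90 genes rose. The 4 fibroblast markers summed to 19.6 to 23.5 CPM in control, 18 to 21.8 in siNAE1, 25.6 to 31.3 in siUBE2M and 22.2 to 24.9 in siURM1. LUM, at a mean of 0.306 CPM in control, was called higher in all 3 knockdowns (1.64, 2.09 and 1.82), and COL1A1 in siUBE2M (0.38). The part of these differences in the results below was not tested.

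The cytosolic HSP90 genes rose in siNAE1 and siUBE2M cells and did not pass the test in siURM1 cells, HSPH1 and BAG3 rose in all 3 knockdowns, HSPB1 rose most in siNAE1 and siURM1, CHORDC1 rose in siNAE1 and fell in siURM1, and HSF1 and HSF2 had log2 fold changes against control between -0.29 and 0.09. These are bulk samples, in which fewer cells of a kind and less RNA per cell cannot be told apart. A gene counted as called when its adjusted p (Benjamini-Hochberg, over all tested genes) was under 0.05 in the edgeR quasi-likelihood fit of all libraries. In siNAE1 cells 8 of the 10 members were called higher, against 27.6% of all tested genes, and 0 lower, against 27.1%. In siUBE2M cells 7 were called higher, against 22.7%, and 2 lower, against 22.6%. In siURM1 cells 5 were called higher and 2 lower, against 20.8% of all genes in each direction. The median log2 fold change over the members was 0.75, 0.29 and 0.21 in siNAE1, siUBE2M and siURM1, beside medians of -0.0021, 0.0075 and -0.021 over all tested genes. With the study's added threshold of a log2 fold change of at least 1, HSP90AA1 and HSP90AB1 were called in siNAE1 cells, against 5.3% of all genes called higher. No member reached it in siUBE2M cells (3.22% of all genes) or in siURM1 cells (2.89%). HSPH1 in siNAE1 cells, at 0.99, lay just outside it.

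**Figure D1:**
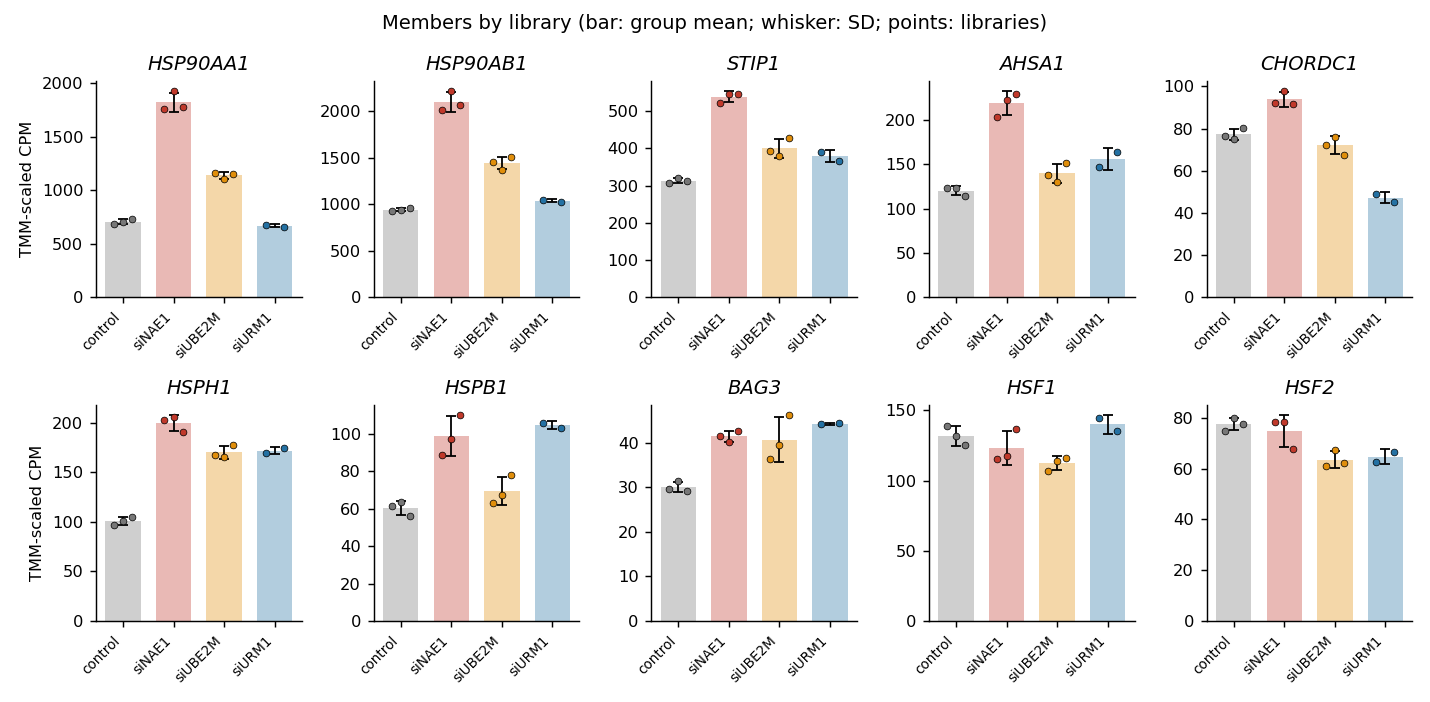
TMM-scaled CPM of the 10 members in each of the 11 libraries (vertical axes, each from 0), by group (horizontal axes). Points are libraries, bars are group means and whiskers are SD. HSP90AA1 was near 705 CPM in control and 1818 CPM in siNAE1, while HSF1 lay below the control range in siUBE2M and HSF2 in siUBE2M and siURM1.

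HSP90AA1 encodes HSP90 alpha, the more stress-inducible of the cytosolic pair (ENSG00000080824, chr14:102080738-102139699, reverse strand, coordinates of the deposited table on GRCh38). Its level was 685, 698 and 733 CPM in the control libraries, 1754, 1922 and 1778 in siNAE1, 1160.5, 1101 and 1154 in siUBE2M and 678 and 659 in siURM1. Every siNAE1 library was above every siUBE2M library, and these were above the control and siURM1 libraries. Both siURM1 libraries lay below the lowest control library. The log2 fold change against control was 1.37 ± 0.057 (SE, edgeR adjusted p = 3.9e-19) in siNAE1, a 2.58-fold rise. It was 0.69 ± 0.056 (SE, edgeR adjusted p = 1.1e-11) in siUBE2M and -0.08 ± 0.063 (SE, edgeR adjusted p = 0.34) in siURM1, with a 95% interval of -0.21 to 0.051 for the latter. When libraries were scaled by their totals alone, the siURM1 value became -0.17 and passed the test. That scaling moved the median of all genes by -0.12 in siNAE1, -0.057 in siUBE2M and -0.090 in siURM1 relative to TMM, so values under it are read against these shifts.

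HSP90AB1 encodes HSP90 beta, the constitutive member of the pair (ENSG00000096384, chr6:44246166-44253888, forward strand). Its level was 927, 942 and 958 CPM in control, 2014, 2215 and 2071 in siNAE1, 1452, 1374 and 1505 in siUBE2M and 1049 and 1029.6 in siURM1. The groups did not overlap, in the order siNAE1, siUBE2M, siURM1 and control. HSP90AB1 rose by 1.16 ± 0.057 (SE, edgeR adjusted p = 2.3e-17) on the log2 scale in siNAE1 and by 0.62 ± 0.056 (SE, edgeR adjusted p = 1.3e-10) in siUBE2M. In siURM1 the difference was 0.14 ± 0.062 (SE, edgeR adjusted p = 0.07), which missed the threshold here and passed it with DESeq2, with 2 groups per fit and without siUBE2M replicate 3.

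Both HSP90 genes together took 0.170% to 0.177% of all counts in control libraries, 0.366% to 0.392% in siNAE1, 0.252% to 0.264% in siUBE2M and 0.166% to 0.170% in siURM1. Expressed as FPKM, which corrects for gene length, the ratio of HSP90AA1 to HSP90AB1 was 0.420 to 0.434 in control, 0.487 to 0.495 in siNAE1, 0.435 to 0.455 in siUBE2M and 0.363 to 0.367 in siURM1. In FPKM, HSP90AB1 was therefore the larger pool in all 11 libraries, and the balance lay furthest toward HSP90AA1 in siNAE1 and furthest toward HSP90AB1 in siURM1. No test was run on these ratios. Processed pseudogenes held few counts beside the parent genes, at most 98 for HSP90AA2P and 50 for HSP90AB3P. WDR20, which overlaps HSP90AA1 on the opposite strand, held 297 to 394 counts, where HSP90AA1 held at least 9508. The libraries were strand-specific, but the strand setting of the counting is not given in the sources used here.

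**Figure D2:**
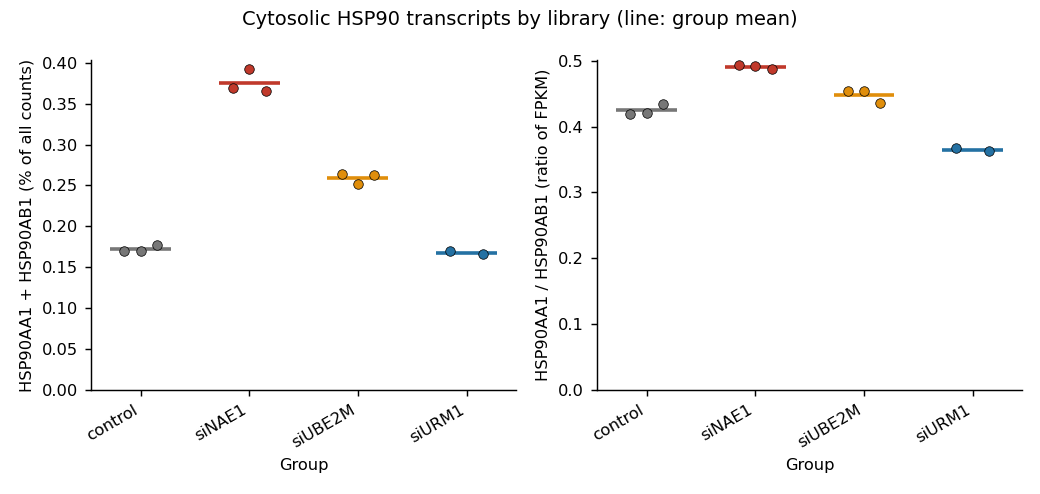
Left, share of all counts taken by HSP90AA1 and HSP90AB1 together in each library (percent). Right, ratio of HSP90AA1 to HSP90AB1 in FPKM. Points are libraries and lines are group means. The share was 0.376% on average in siNAE1 against 0.172% in control, and the ratio was lowest in siURM1.

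Among the co-chaperones of HSP90, STIP1 and AHSA1 were called higher in all 3 knockdowns, and CHORDC1 was not. STIP1, also called HOP, bridges HSP70 and HSP90 and so hands over clients (ENSG00000168439, chr11:64185272-64204543, forward strand). It was at 307, 319 and 313 CPM in control, 523, 547 and 547 in siNAE1, 393, 379.8 and 429 in siUBE2M and 391 and 367 in siURM1. All knockdown libraries were above all control libraries, and the siNAE1 libraries were the highest. The log2 fold change was 0.78 ± 0.058 (SE, edgeR adjusted p = 5.7e-13) in siNAE1, 0.36 ± 0.058 (SE, edgeR adjusted p = 6.7e-06) in siUBE2M and 0.28 ± 0.064 (SE, edgeR adjusted p = 0.00079) in siURM1.

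AHSA1, or AHA1, stimulates the ATPase of HSP90 (ENSG00000100591, chr14:77457870-77469474, forward strand). Its level was 123, 124 and 115 CPM in control, 204, 223 and 229.9 in siNAE1, 138, 131 and 152 in siUBE2M and 147 and 165 in siURM1. The siNAE1 libraries stood above all others, and those of siUBE2M and siURM1 overlapped each other above the control. AHSA1 rose by 0.86 ± 0.068 (SE, edgeR adjusted p = 2.3e-12) on the log2 scale in siNAE1, by 0.22 ± 0.068 (SE, edgeR adjusted p = 0.0092) in siUBE2M and by 0.37 ± 0.076 (SE, edgeR adjusted p = 0.00016) in siURM1. The siUBE2M call was lost without siUBE2M replicate 3. VIPAS39, which lies opposite AHSA1, held 301 to 587 counts, and AHSA1 at least 1821. AHSA2P, a transcribed pseudogene listed at another locus and named after the same family, held 671 to 1193 counts, and whether it shares fragments with AHSA1 was not tested.

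CHORDC1, or CHP-1, binds HSP90 through zinc-binding CHORD domains (ENSG00000110172, chr11:90201160-90223364, reverse strand). It was at 76.5, 75.1 and 80 CPM in control, 91.9, 97.6 and 91.8 in siNAE1, 72.2, 76.2 and 67.6 in siUBE2M and 49 and 45.4 in siURM1. The siNAE1 libraries were the highest and the siURM1 libraries the lowest, both clear of all other libraries, while siUBE2M overlapped control. CHORDC1 rose by 0.28 ± 0.07 (SE, edgeR adjusted p = 0.001) on the log2 scale in siNAE1 and fell in siURM1, with a log2 fold change of -0.71 ± 0.082 (SE, edgeR adjusted p = 2e-08). In siUBE2M the value was -0.10 ± 0.071 (SE, edgeR adjusted p = 0.26), with a 95% interval of -0.24 to 0.044. The call in siNAE1 was lost when libraries were scaled by their totals. Relative to HSP90AA1 and HSP90AB1 together in FPKM, CHORDC1 stood at 0.0157 to 0.0163 in control and at 0.00826 to 0.0107 over the 3 knockdowns. The knockdown and control ranges of this ratio did not overlap, and no test was run on it. The same ratio for STIP1 averaged 0.149 in control and 0.110, 0.123 and 0.171 in siNAE1, siUBE2M and siURM1. For AHSA1 it averaged 0.0907 in control and 0.0707, 0.0678 and 0.111 in the same knockdowns.

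HSPH1, or HSP105, belongs to the HSP110 family and releases ADP from HSP70 (ENSG00000120694, chr13:31134974-31162388, reverse strand). It was at 97, 100.4 and 105 CPM in control, 203, 206 and 191 in siNAE1, 167, 166 and 177 in siUBE2M and 169 and 174 in siURM1. All knockdown libraries lay well above control, with the siNAE1 libraries on top. HSPH1 rose by 0.99 ± 0.062 (SE, edgeR adjusted p = 1.1e-14) on the log2 scale in siNAE1, by 0.76 ± 0.062 (SE, edgeR adjusted p = 1.3e-11) in siUBE2M and by 0.77 ± 0.068 (SE, edgeR adjusted p = 8e-11) in siURM1. In siUBE2M its log2 fold change was the highest among the members.

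HSPB1, or HSP27, is a small heat shock protein that holds unfolded proteins without using ATP (ENSG00000106211, chr7:76302544-76304295, forward strand). Its level was 61.5, 63.5 and 56.2 CPM in control, 88.9, 97.4 and 110.1 in siNAE1, 63.2, 67.5 and 78 in siUBE2M and 106 and 103 in siURM1. The siNAE1 and siURM1 libraries lay above the rest and overlapped each other, and the lowest siUBE2M library fell within the control range. The log2 fold change was 0.71 ± 0.082 (SE, edgeR adjusted p = 8.6e-09) in siNAE1 and 0.79 ± 0.089 (SE, edgeR adjusted p = 1.3e-08) in siURM1. In siUBE2M it was 0.20 ± 0.083 (SE, edgeR adjusted p = 0.044), a call that was lost in 9 of 19 alternatives, among them DESeq2 and the omission of control replicate 1 or 3 or of siUBE2M replicate 3.

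BAG3 joins HSP70 to small heat shock proteins and directs clients to selective autophagy (ENSG00000151929, chr10:119651370-119677819, forward strand). It was at 29.6, 31.4 and 29.3 CPM in control, 41.5, 40.1 and 42.6 in siNAE1, 36.4, 39.4 and 46.2 in siUBE2M and 44.1 and 44.4 in siURM1. The knockdown libraries were all above control. Those of siUBE2M spread over the range of the other knockdowns, and the siNAE1 libraries lay below those of siURM1. BAG3 rose by 0.46 ± 0.089 (SE, edgeR adjusted p = 5.1e-05) on the log2 scale in siNAE1, 0.44 ± 0.088 (SE, edgeR adjusted p = 0.00013) in siUBE2M and 0.56 ± 0.10 (SE, edgeR adjusted p = 2e-05) in siURM1.

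HSF1 (ENSG00000185122, chr8:144291591-144314722, forward strand) is controlled mainly through its protein. Its level was 139, 132 and 125 CPM in control, 115, 117.4 and 137 in siNAE1, 107, 114 and 116 in siUBE2M and 145 and 135 in siURM1. The siUBE2M libraries lay below all control libraries, and the other knockdowns overlapped control. HSF1 fell in siUBE2M, with a log2 fold change of -0.23 ± 0.069 (SE, edgeR adjusted p = 0.007), and this call was lost without control replicate 1 or siUBE2M replicate 1. It was -0.10 ± 0.07 (SE, edgeR adjusted p = 0.23) in siNAE1, with a 95% interval of -0.24 to 0.042, and 0.09 ± 0.077 (SE, edgeR adjusted p = 0.38) in siURM1, with an interval of -0.068 to 0.24. In siNAE1 the transcript was called lower when libraries were scaled by their totals, at -0.22, and without siNAE1 replicate 3. DGAT1 overlaps HSF1 on the opposite strand and held 520 to 937 counts, where HSF1 held 1449 to 2320. The values of HSF1 are uncertain if the strand was not used in counting, and the size of that uncertainty was not measured.

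HSF2, a related factor that can form mixed trimers with HSF1 (ENSG00000025156, chr6:122399546-122433119, forward strand), was at 75.1, 80 and 77.7 CPM in control, 78.5, 78.5 and 67.7 in siNAE1, 61, 67.5 and 62.2 in siUBE2M and 62.8 and 66.8 in siURM1. The siUBE2M and siURM1 libraries were all below the control range, and siNAE1 overlapped control. HSF2 fell by 0.29 in siUBE2M on the log2 scale (SE 0.074, edgeR adjusted p = 0.0019) and by 0.26 in siURM1 (SE 0.083, edgeR adjusted p = 0.011). The siURM1 call was lost without control replicate 2 or siURM1 replicate 1. In siNAE1 the log2 difference was -0.05 ± 0.074 (SE, edgeR adjusted p = 0.6), with a 95% interval of -0.20 to 0.10.

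**Figure D3:**
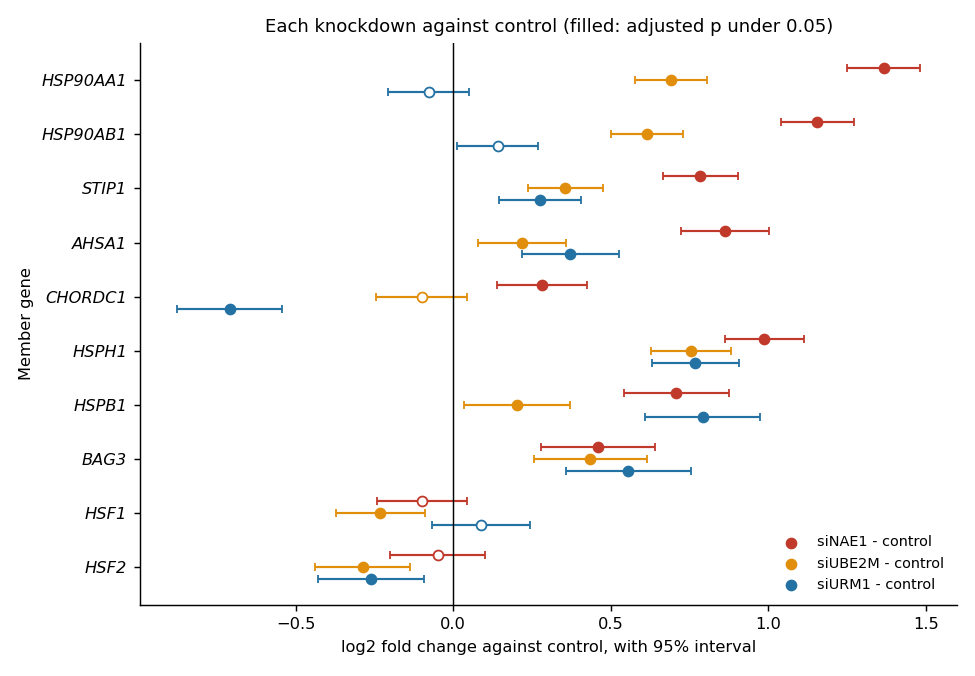
Log2 fold change of each member against control (horizontal axis, points with 95% intervals) in siNAE1, siUBE2M and siURM1, with members on the vertical axis. Filled points had an edgeR adjusted p under 0.05. HSP90AA1 ran from 1.37 in siNAE1 to -0.08 in siURM1, whereas the 3 intervals of BAG3 overlapped.

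Because the 3 knockdowns shared the control libraries, they were also compared with each other directly. Against siUBE2M, siNAE1 cells had 8 members called higher (22.7% of all tested genes) and 0 lower (21.6%). Against siURM1 they had 7 higher (19.5%) and 0 lower (19.1%). In siUBE2M against siURM1, 3 were called higher (16.7%) and 2 lower (18.3%). The cytosolic HSP90 genes separated every pair. HSP90AA1 was higher in siNAE1 than in siUBE2M by 0.68 ± 0.056 (SE, edgeR adjusted p = 1.8e-11) on the log2 scale, and higher in siUBE2M than in siURM1 by 0.77 ± 0.064 (SE, edgeR adjusted p = 3.9e-11). For HSP90AB1 the same differences were 0.54 ± 0.056 (SE, edgeR adjusted p = 1.8e-09) and 0.47 ± 0.063 (SE, edgeR adjusted p = 4.5e-07). Between siNAE1 and siURM1 the difference was 1.44 ± 0.066 (SE, edgeR adjusted p = 2.6e-17) for HSP90AA1, 2.72-fold, and 1.02 ± 0.064 (SE, edgeR adjusted p = 5.8e-14) for HSP90AB1.

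CHORDC1 also separated every pair, at 0.99 ± 0.083 (SE, edgeR adjusted p = 3.3e-11) between siNAE1 and siURM1, 0.38 ± 0.071 (SE, edgeR adjusted p = 4.4e-05) between siNAE1 and siUBE2M, and 0.61 ± 0.082 (SE, edgeR adjusted p = 5.8e-07) between siUBE2M and siURM1. STIP1 was higher in siNAE1 than in siUBE2M by 0.43 ± 0.058 (SE, edgeR adjusted p = 2.9e-07) and than in siURM1 by 0.51 ± 0.065 (SE, edgeR adjusted p = 1.8e-07). AHSA1 was likewise higher in siNAE1 than in siUBE2M and siURM1, with differences of 0.64 ± 0.068 (SE, edgeR adjusted p = 2.7e-09) and 0.49 ± 0.076 (SE, edgeR adjusted p = 4.2e-06). Between siUBE2M and siURM1 neither passed the test, with 95% intervals of -0.052 to 0.21 for STIP1 and -0.31 to 0.0027 for AHSA1, although AHSA1 passed it without siUBE2M replicate 3. The HSP90 adaptor and the ATPase activator were thus highest in siNAE1.

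HSPB1 was lower in siUBE2M than in siURM1 by a log2 difference of -0.59 ± 0.089 (SE, edgeR adjusted p = 3.9e-06) and higher in siNAE1 than in siUBE2M by 0.50 ± 0.082 (SE, edgeR adjusted p = 6e-06). Between siNAE1 and siURM1 the difference was -0.08 ± 0.089 (SE, edgeR adjusted p = 0.49), with a 95% interval of -0.27 to 0.10. HSPH1 was higher in siNAE1 than in siUBE2M by 0.23 ± 0.061 (SE, edgeR adjusted p = 0.0022) and than in siURM1 by 0.22 ± 0.068 (SE, edgeR adjusted p = 0.01), and the latter call was lost without siURM1 replicate 1. Between siUBE2M and siURM1 its difference was -0.01 ± 0.068 (SE), with an interval of -0.15 to 0.13. BAG3 was called in no pair, and its 95% intervals were -0.15 to 0.20 for siNAE1 against siUBE2M, -0.29 to 0.10 for siNAE1 against siURM1 and -0.32 to 0.075 for siUBE2M against siURM1.

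HSF1 was lower in siUBE2M than in siURM1 by a log2 difference of -0.32 ± 0.077 (SE, edgeR adjusted p = 0.0015). It was -0.19 ± 0.077 (SE, edgeR adjusted p = 0.055) between siNAE1 and siURM1, which passed the test in 12 of 19 alternatives, and 0.13 ± 0.07 (SE, edgeR adjusted p = 0.13) between siNAE1 and siUBE2M. HSF2 was higher in siNAE1 than in siUBE2M by 0.24 ± 0.075 (SE, edgeR adjusted p = 0.0099), a call lost in 5 of 19 alternatives, among them library totals and the omission of siNAE1 replicate 1 or 2 or of siUBE2M replicate 1. Its difference between siNAE1 and siURM1, 0.21 ± 0.084 (SE, edgeR adjusted p = 0.044), lost the call in 16 of 19 alternatives, and that between siUBE2M and siURM1 was -0.03 ± 0.084 (SE), with an interval of -0.20 to 0.14.

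**Figure D4:**
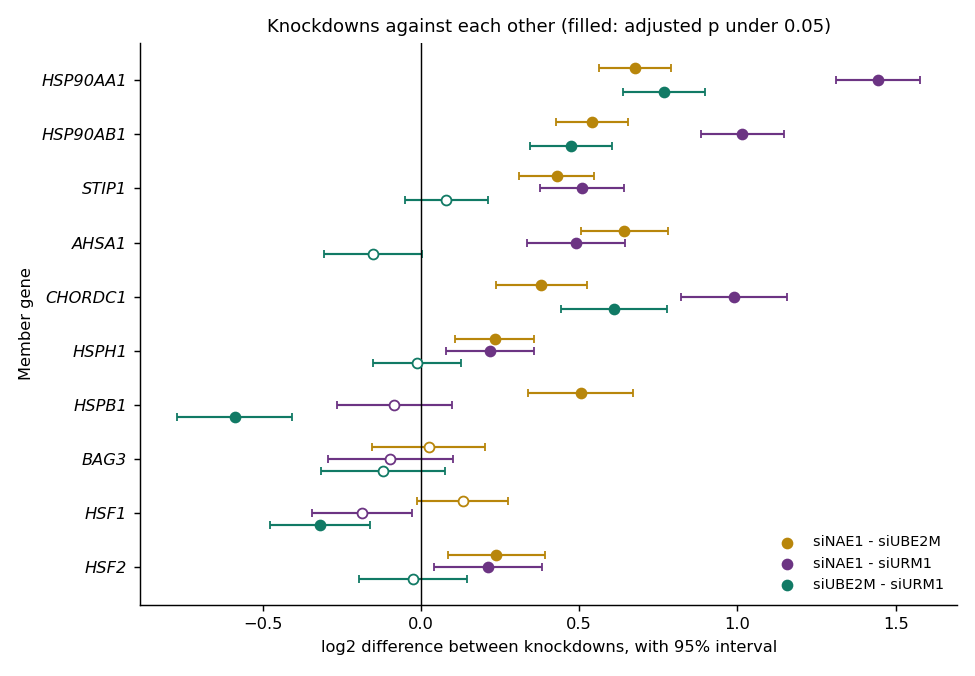
Log2 difference of each member between knockdowns (horizontal axis, points with 95% intervals), with members on the vertical axis. Filled points had an edgeR adjusted p under 0.05. HSP90AA1, HSP90AB1 and CHORDC1 were called in all 3 pairs and BAG3 in none.

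Levels of different genes were compared in FPKM, which the authors computed with a listed gene length that can include exons rarely used. In control cells the order was HSP90AB1 at 314 ± 6.31 (SD, n = 3), HSP90AA1 at 133 ± 4.98, STIP1 at 66.7 ± 1.63, AHSA1 at 40.5 ± 1.62, HSPB1 at 36.7 ± 2.32, HSF2 at 28.5 ± 1.05, HSF1 at 24.6 ± 1.19, HSPH1 at 11.9 ± 0.508, BAG3 at 10.9 ± 0.459 and CHORDC1 at 7.19 ± 0.232 FPKM. Among neighbours in this order only AHSA1 and HSPB1 overlapped between libraries. In siNAE1, HSPH1 passed HSF1 in the mean, at 23.5 ± 0.929 against 22.9 ± 2.21 FPKM, but their libraries overlapped. In siUBE2M the overlaps were those of AHSA1 with HSPB1 and of HSF1 with HSPH1. In siURM1 (n = 2), HSPB1 stood above AHSA1, at 63.5 ± 1.23 against 52.4 ± 4.19 FPKM, and HSF1 above HSF2, at 26.2 ± 1.22 against 23.8 ± 1.05 FPKM, without overlap. The ends of the order, HSP90AB1 first and CHORDC1 last, were the same in the 4 groups.

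The likeness of other genes to HSP90AA1, HSPH1 and BAG3 was measured as the root mean square difference of log2 CPM, each gene taken relative to its control mean, over the 11 libraries. It was computed for 10467 genes whose mean reached 10 CPM. The nearest to HSP90AA1 was HSP90AB1, at 0.151, followed by TUBA1A at 0.154 and MSRB1 at 0.156. The nearest to HSPH1 were MFAP1 at 0.0665, SIPA1 at 0.0741 and TIMP2 at 0.0754, and to BAG3 they were RPL22 at 0.0642, TNIP2 at 0.0661 and RPL7 at 0.0674. In the order of nearness to HSP90AA1, STIP1 ranked 226, HSPH1 338, AHSA1 351, BAG3 1712, HSPB1 1825, CHORDC1 4393, HSF2 6618 and HSF1 6679. The pair of cytosolic HSP90 genes thus lay closer to each other than either the co-chaperones or HSP110 lay to HSP90AA1. These distances share libraries and depth, and describe only these samples.

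Further genes of the pathway were taken as lists chosen with results of these data already known, so their counts are not independent evidence of a direction, and log2 fold changes below are in the order siNAE1, siUBE2M and siURM1 against control. The HSP90 paralogs of other compartments differed in direction from the cytosolic pair in siUBE2M cells. HSP90B1, the paralog of the endoplasmic reticulum also called GRP94, had values of 0.42, -0.23 and -0.31, and rose in siNAE1 (edgeR adjusted p = 2e-07) and fell in siUBE2M (adjusted p = 0.0017) and siURM1 (adjusted p = 0.00027). TRAP1, the mitochondrial paralog, had values of 0.30, -0.15 and -0.15, and rose in siNAE1 (edgeR adjusted p = 4.9e-05), fell in siUBE2M (adjusted p = 0.034) and missed the threshold in siURM1 (adjusted p = 0.066).

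Of 16 other HSP90 co-chaperones, 7 were called higher and 2 lower in siNAE1 (27.6% and 27.1% of all tested genes), 4 and 3 in siUBE2M (22.7% and 22.6%), and 4 and 3 in siURM1 (20.8% each), so the siUBE2M and siURM1 counts lay near the background. The list had median log2 fold changes of 0.28, 0.00079 and -0.00041. UNC45A, a chaperone of myosin, rose in all 3 knockdowns (1.01, 0.59 and 0.55). FKBP4, an immunophilin of steroid receptor complexes, had values of 0.83, -0.01 and 0.26 and rose in siNAE1 and siURM1. CDC37, the adaptor for kinase clients, had values of 0.57, 0.08 and 0.40 and rose in the same knockdowns. FKBP5, the immunophilin that opposes FKBP4 in steroid receptor complexes, fell in siNAE1 and siUBE2M (-0.43, -0.38 and -0.19), as did FKBP8 (-0.19, -0.17 and -0.05). TOMM34, a co-chaperone tied to mitochondrial import, fell in siUBE2M and siURM1 (0.16, -0.38 and -0.38).

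Of 9 other genes listed here as small heat shock proteins only 4 passed the filter on low counts, and CRYAA had no counts. Among these 4, 1 was called higher in siNAE1 (27.6% of all tested genes), 2 lower in siUBE2M (22.6%) and 2 lower in siURM1 (20.8%), with medians of -0.25, -0.38 and -0.84. These values rest mostly on low counts. Group means ran from 0.097 to 0.841 CPM for HSPB6, from 1.28 to 3.55 for HSPB9 and from 3.04 to 9.41 for HSPB8. In siURM1, HSPB6 held 2 and 1 counts. HSPB11, the one with at least 10 CPM, was called in no knockdown (-0.17, -0.03 and -0.19). HSPB8, named here after its values were seen, was the one called higher in siNAE1 (1.10, -0.53 and 0.30), and it fell in siUBE2M.

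Of 5 other genes named as BAG proteins, 2 were called higher and 0 lower in siNAE1 (27.6% and 27.1% of all tested genes), 1 and 1 in siUBE2M (22.7% and 22.6%), and 2 and 0 in siURM1 (20.8% each). BAG1 rose in all 3 knockdowns, from 32.5 CPM in control to 110.3, 60.4 and 62.9 CPM, with log2 fold changes of 1.76, 0.90 and 0.96, each larger than that of BAG3. BAG5 rose in siNAE1 and siURM1 (0.55, 0.14 and 0.26), BAG4 fell in siUBE2M (0.03, -0.43 and -0.13), and BAG2 (0.18, -0.23 and -0.09) and BAG6 (0.02, 0.10 and -0.01) were not called. Of 5 other nucleotide exchange factors of HSP70, 3 were called higher and 1 lower in siNAE1, 0 and 3 in siUBE2M, and 1 and 2 in siURM1, beside the same shares of all genes. HSPA4 and HSPA4L, the cytosolic relatives of HSPH1, differed from it in direction in siUBE2M. HSPA4 had values of -0.01, -0.34 and -0.18 and fell in siUBE2M and siURM1, and HSPA4L had values of 0.40, -0.35 and -0.03, rose in siNAE1 and fell in siUBE2M. HYOU1, the HSP110 of the endoplasmic reticulum, had values of 0.92, -0.09 and -0.19, rose in siNAE1 and fell in siURM1. HSPBP1 rose in siNAE1 and siURM1 (0.64, 0.15 and 0.28), and SIL1, the exchange factor for the HSP70 of the endoplasmic reticulum, fell in siNAE1 and siUBE2M (-0.61, -0.80 and -0.28).

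Among 13 other heat shock factors and regulators of HSF1, 12 were tested. In siNAE1 5 were called higher and 2 lower (27.6% and 27.1% of all tested genes), in siUBE2M 6 and 1 (22.7% and 22.6%), and in siURM1 3 and 3 (20.8% each), the last near the background. HSBP1, which binds the trimerization domain of HSF1 and dampens its activity, rose in all 3 knockdowns (0.92, 0.60 and 0.63). VCP, the ATPase that extracts proteins for degradation, did so too (0.83, 0.32 and 0.42), as did the kinase AKT1 (0.36, 0.42 and 0.25). EP300, an acetyltransferase, fell in siNAE1 and siURM1 (-0.49, -0.14 and -0.40). SIRT1, a deacetylase of HSF1, fell in siNAE1 and siUBE2M (-0.51, -0.29 and -0.09), and the kinase MTOR fell in siURM1 (-0.06, 0.00 and -0.28).

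Of 13 other textbook targets of HSF1, 13 were called higher in siNAE1 (27.6% of all tested genes), 9 in siUBE2M (22.7%) and 10 in siURM1 (20.8%), and 0 lower in each (27.1%, 22.6% and 20.8%), with medians of 0.82, 0.44 and 0.57. HSPA8, the constitutive HSP70, stood at 251 CPM in control and 1455, 1150.4 and 917 CPM in siNAE1, siUBE2M and siURM1, with log2 fold changes of 2.54, 2.20 and 1.87. HSPA1B, a stress-inducible HSP70, stood at 29.5 CPM in control and 231, 91.9 and 189.8 CPM in siNAE1, siUBE2M and siURM1 (2.97, 1.64 and 2.68), but HSPA1A is almost the same in sequence, and how fragments were split between the pair is uncertain. DNAJB1, an HSP40 that works with HSP70, stood at 50 CPM in control and 136, 106 and 81.7 CPM in siNAE1, siUBE2M and siURM1 (1.44, 1.08 and 0.71). In each knockdown, HSPA8 and HSPA1B thus had larger log2 fold changes than any of the 10 members. In siURM1 cells HSP70 transcripts rose while HSP90AA1 and HSP90AB1 did not pass the test in the main fit. There HSP90AB1 passed as higher in 3 of 19 alternatives, DESeq2 among them, and HSP90AA1 passed as lower with library totals.

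**Figure D5:**
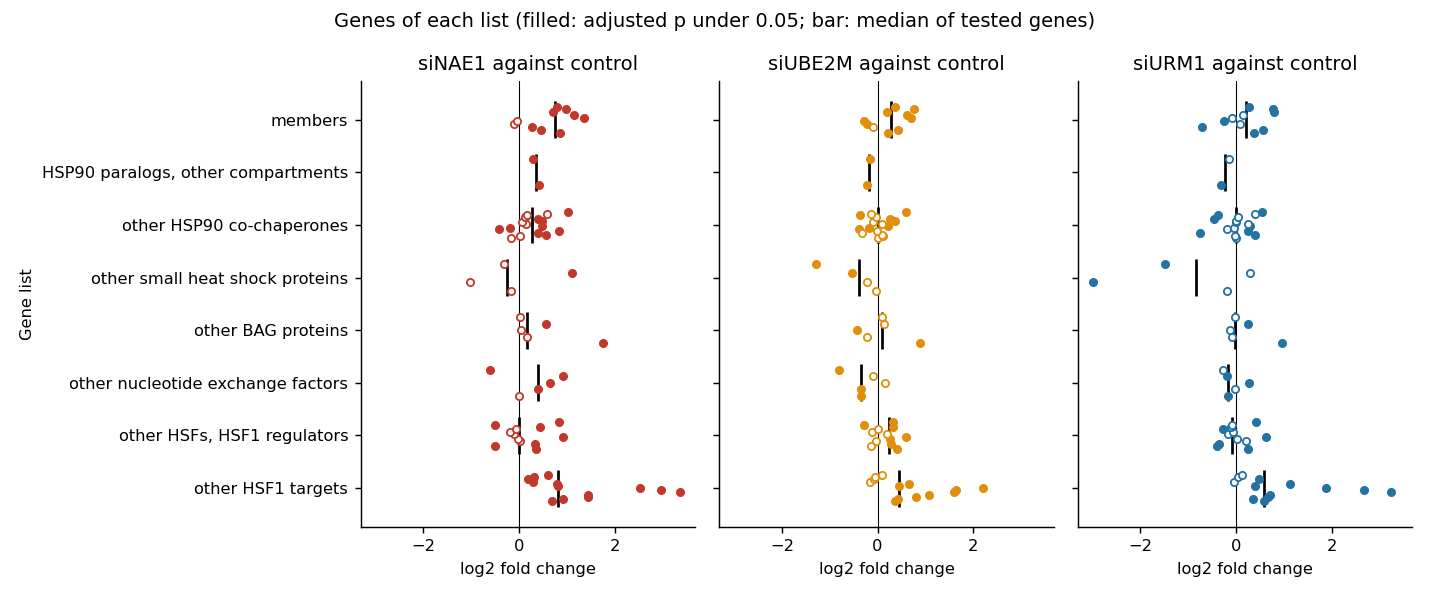
Log2 fold change against control (horizontal axes) of every tested gene in the member list and in 7 further lists (vertical axis), in siNAE1, siUBE2M and siURM1. Filled points had an edgeR adjusted p under 0.05, and black bars are medians of the tested genes. The other HSF1 targets had medians of 0.82, 0.44 and 0.57, and the other co-chaperones had medians near 0 in siUBE2M and siURM1.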

How the data were processed

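Messenger RNA of HEK293T cells was measured in 11 libraries, and groups were taken from the GEO labels, which call replicates biological. The authors aligned reads to GRCh38 with HISAT2 2.0.5 after fastp and counted fragments per gene with featureCounts 1.5.0-p3. The deposited counts are raw. The authors derived the deposited FPKM values from these counts and a listed gene length. Processing notes also name DESeq2 1.20.0. All sample columns were used (0 left out).

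The edgeR package 4.0.16 (R 4.3.3) was run on the counts with filterByExpr, TMM scaling, and 1 quasi-likelihood fit with 4 groups, giving 6 comparisons with p-values adjusted by Benjamini-Hochberg over 18368 genes. Intervals are 95% intervals of the fit. The script was tested on simulated data. Members and lists were chosen with earlier results of these data known. Named list genes are, per list and direction, up to 3 whose mean level reached 10 CPM and whose mean change was largest (HSPB8 was added after its values were seen). Likeness used a prior count of 2. Alternatives were DESeq2 1.42.0, RLE, library totals, no filter, 2 groups per fit, a replicate block, glmTreat, limma 3.58.1 on log2(FPKM + 1), a log2 fold change of at least 1, likeness on log2(FPKM + 1), and leaving out each library. Plots were drawn with matplotlib 3.10.9 and tables with pandas 2.3.3 under Python 3.11.15. The other experiments of the study were not analysed here.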

Additional observations from a re-analysis of the deposited data

Results flagged for a closer look

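CHORDC1 was the one member called in opposite directions in a pair of knockdowns. Its log2 fold change against control was 0.28 ± 0.07 (SE, edgeR adjusted p = 0.001) in siNAE1 and -0.71 ± 0.082 (SE, edgeR adjusted p = 2e-08) in siURM1, and every siNAE1 library was above control while both siURM1 libraries were below it. The direct comparison of siNAE1 with siURM1 gave a log2 difference of 0.99 ± 0.083 (SE, edgeR adjusted p = 3.3e-11), which kept its direction and its call in the 19 alternatives that refitted it, and which lies just under a log2 threshold of 1. A member was flagged only if this direct comparison was called, so its call is not separate evidence. The siNAE1 call against control was lost with library totals and with glmTreat against 0.5.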

How the results depend on the processing

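Over the 10 members, 6 comparisons and 19 alternatives for each, 1059 of 1140 log2 fold changes kept their side of the threshold, 62 lost a call and 19 gained one. No called value turned direction, while 11 values of 5 differences that were not called did, all within 0.0879 of 0 (HSF2 in siNAE1, HSF1 in siURM1, BAG3 between siNAE1 and siUBE2M, and HSPH1 and HSF2 between siUBE2M and siURM1).

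In the order siNAE1, siUBE2M and siURM1 against control, siNAE1 against siUBE2M, siNAE1 against siURM1 and siUBE2M against siURM1, a log2 fold change of at least 1 left 2, 0, 0, 0, 2 and 0 members called, beside 13.9%, 7.11%, 7.62%, 7.84%, 6.76% and 5.41% of all tested genes. With glmTreat against 0.5 the counts were 6, 2, 3, 1, 3 and 1, beside 19.2%, 8.72%, 9.05%, 9.48%, 7.57% and 5.28% of genes. Both settings ask for a larger change by construction. When 1 library was omitted at a time there were 8 to 9, 7 to 9, 6 to 8, 7 to 8, 5 to 8 and 5 to 6 calls, beside 50.6% to 55.7%, 40% to 46.4%, 30% to 42.9%, 38.9% to 44.2%, 27.2% to 39.8% and 23.8% to 36.3% of genes. Without a siURM1 replicate that group holds 1 library, which was assumed to vary like the others. With the replicate block the counts were 8, 9, 7, 8, 8 and 5, beside 54.4%, 45.1%, 40.4%, 43.8%, 37% and 34.3% of genes. Deviations of same-numbered libraries from their group means correlated from -0.37 to 0.39, and those of differently numbered libraries from -0.44 to 0.34. Deviations from the means of such small groups are tied to each other, so these correlations cannot decide whether libraries were paired.

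The nearest genes to HSP90AA1 were the same 3 on log2(FPKM + 1), while RPA1 and PRICKLE3 replaced 2 of the 3 for HSPH1 and EBP replaced RPL7 for BAG3. The siURM1 group has 2 libraries, and its intervals against control are the widest. The lowest count of a member in a library was 464.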
